A study of Mus musculus with 9 samples.

Results

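The genes of membrane fusion described here are the SNARE, synaptotagmin and vesicle-priming families: SNAP, VAMP and syntaxin genes, the Stxbp genes, synaptotagmins and synaptotagmin-like genes, complexins, Unc13, Rims, Nsf, Nap and Doc2 genes, synapsins, Sv2 genes, Syp and Snap91. They were chosen by their symbols alone, and 83 rows of the table, or 82 genes, matched out of 24378 gene rows and 23528 genes. Counts came from 9 single cells of the paraventricular nucleus region of C57Bl6/N mice aged 21 to 28 days, all labelled as secretagogin-positive and called cell 1 to cell 9 after their labels. No genotype, treatment or animal is named for any cell. The cells therefore form 1 sample without a contrast between groups, and no test or p-value is given.

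A vesicle fuses when a SNARE protein on its own membrane zips together with SNARE proteins on the target membrane. Syntaxin and SNAP-25 provide the target side at the neuronal plasma membrane, and a VAMP protein provides the vesicle side. Munc18 and Munc13 proteins prepare the assembly, complexin holds and assists it, and synaptotagmin triggers fusion when calcium binds. NSF, with its SNAP adaptors, then takes the spent complex apart. Neuroendocrine neurons of this nucleus use such proteins both for synaptic vesicles and for the dense-core vesicles that carry peptide hormones.

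The depth of the cells sets what can be read from these counts. Gene molecules per cell ranged from 1021 in cell 1 and 3393 in cell 6 to 26466 in cell 5, with 91370 in all. Spike-in counts lay between 1962 and 2184 for cells 1 to 8, from lane 3, and at 614 for cell 9, which alone came from lane 4. A count of 0 has an interval that reaches 3.69 molecules, a limit per 10000 gene molecules of 36.1 for cell 1, 10.9 for cell 6 and 1.39 for cell 5. Cells 4, 5, 7 and 8 stood apart by markers of other cell types. Cell 4 held 2376 molecules of blood markers and 124 of endothelial markers, cell 5 held 413 of oligodendrocyte markers, cell 7 held 55 of endothelial markers and cell 8 held 303 of ependymal and tanycyte markers. Of these 303, 231 were Dbi, which cells 4 and 5 held too, at 6 and 17. Ccdc153, Tmem212 and Rarres2 had 24, 25 and 20 in cell 8 alone, and Rax and Col23a1 had 0. Cell 8 also held 29 molecules of astrocyte markers. Mitochondrial rows made up 4.31 to 9.37% of the gene molecules in cells 2, 3, 5 and 9. Their share was higher in cells 1, 4, 6, 7 and 8, which had 19.9, 22.6, 34.2, 13.4 and 16.5%. Scgn, the gene of the label, had molecules in cells 2, 3, 5, 8 and 9. All intervals are exact at 95% and describe counting error alone.

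The release genes were sparse, and they differed between cells. They gave 620 molecules over the 9 cells, or 67.9 per 10000 gene molecules. For cells 1 to 9, in that order, the summed levels were 58.8, 101, 52.2, 19.1, 103, 91.4, 44.7, 27.3 and 84.3 molecules per 10000. Cells 4 and 8 were lowest, with intervals of 12.1 to 28.7 and 19.1 to 37.8 per 10000. These intervals lay below those of cells 2, 3, 5, 6 and 9, whose lower ends ran from 39.4 per 10000 in cell 3 to 91.3 in cell 5. Cell 1 had only 6 molecules of these genes, and its interval of 21.6 to 128 per 10000 overlapped that of every other cell. With mitochondrial rows out of the total, cells 4 and 8 were still lowest, at 24.7 and 32.7 per 10000, and cell 6 was highest at 139.

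The order of the cells depended on what their molecules were set against. Per 1000 spike-in molecules the release genes numbered 2.96, 44.9, 26.1, 11.7, 125, 15.4, 15.4, 16.5 and 107 in cells 1 to 9. Cell 1 was then lowest and cell 4 next, cell 8 ranked 5 and cell 6 ranked 7, against ranks 8 and 3 per 10000 gene molecules. The spike-in count of cell 9 was itself low, which raises its value on that scale.

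The neuron markers, left without the abundant non-coding RNA Meg3, had their lowest values in cells 1, 4 and 8. Summed over the 8 remaining markers they had 9.79 molecules per 10000 in cell 1, 7.49 in cell 4 and 19.7 in cell 8, against 29.5 to 90.7 in the other 6 cells. The value of cell 1 rested on 1 molecule, with an interval of 0.248 to 54.6 per 10000, so its place is uncertain. Meg3, left out here, had 61 molecules in cell 1. Microglial markers had 0 molecules in every cell. With the rows of all other cell type markers taken out of the total, the summed level of the release genes was 27.5 per 10000 in cell 4 (interval 17.4 to 41.3) and 28.0 in cell 8 (interval 19.6 to 38.8). Both were still the lowest values, and the interval of cell 4 then overlapped that of cell 3. In cell 5 it was 105, with 440 such marker molecules removed. The part that other cell types play in these levels was otherwise not tested.

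**Figure D1:**
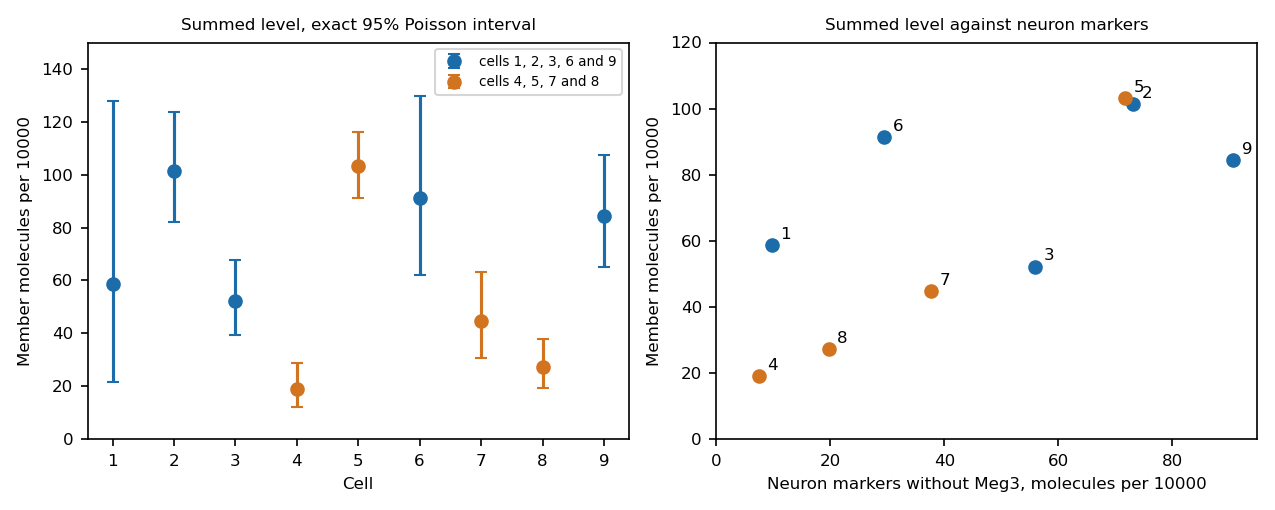
Left, molecules of the 82 release genes per 10000 gene molecules in each cell, with exact 95% Poisson intervals; right, the same level against the summed neuron markers without Meg3, with cells numbered. Orange points are the cells with markers of other cell types; cells 4 and 8, at 19.1 and 27.3 per 10000, are the lowest.

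Of the 82 genes, 12 had at least 1 molecule in at least 5 of the 9 cells (14.6%), 45 in 1 to 4 cells and 25 had no molecule. Among all genes, 7.00% reached at least 5 cells, and over the protein-coding genes 7.74% did. At least 1 molecule was found for 57 of the 82 genes (69.5%), against 41.4% of all genes and 45.7% of protein-coding genes. The median over the 82 genes was 3 molecules, and over all genes it was 0. Among the 12 genes in most cells were Snap25, Snap47, Snap91, Nsf, Napa, Napg, Cplx2, Sv2a, Syt1, Syt4 and Syt11. At 2 or more molecules in at least 5 cells there were 6 (7.32%), against 2.64% of all genes and 2.84% of protein-coding genes. None was found in all 9 cells, since Syt4 and Syt11, in 8 cells each, were both missing from the shallow cell 1.

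**Figure D2:**
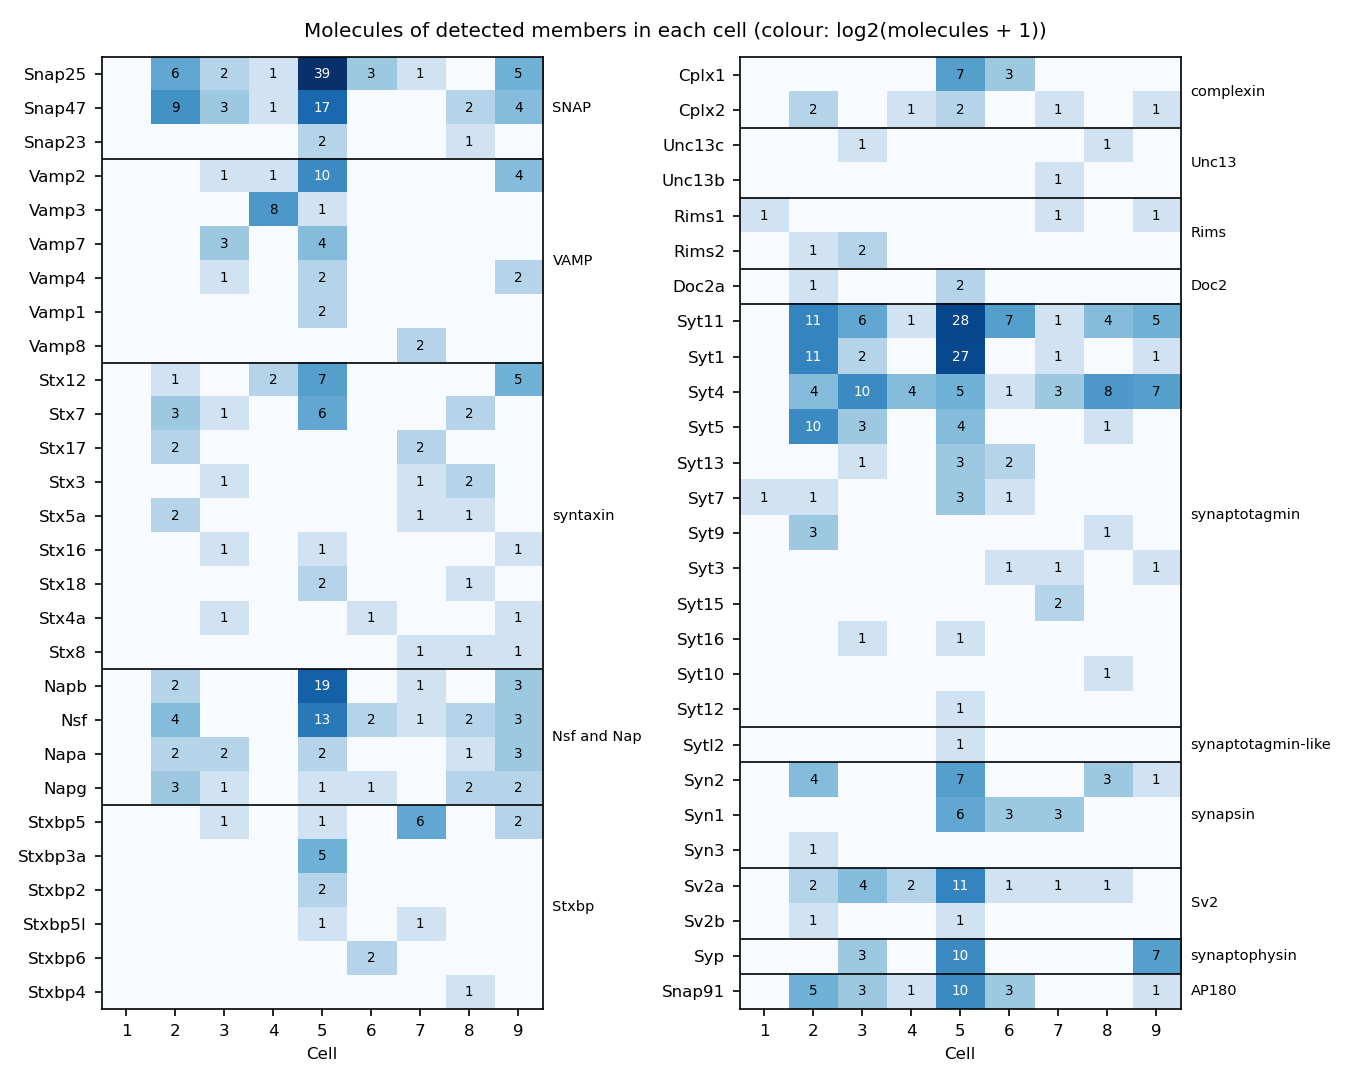
Molecules of 55 of the 57 release genes with at least 1 molecule (rows, grouped by family) in each of the 9 cells (columns); an empty field is a count of 0. Cell 5 holds the darkest fields, such as 39 molecules of Snap25, and Syt4 and Syt11 have molecules in every cell but cell 1.

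Levels of different genes are given below in molecules, and beside them in molecules per kb of the longest transcript annotated in GENCODE M21. Molecules did not rise with transcript length over the 9341 protein-coding genes with at least 1 molecule (Spearman -0.09) or over the 55 release genes with a length (Spearman -0.13). Both are descriptions across genes that share the same cells. Scaling by length therefore favours genes with short annotated transcripts, and an order that differs between the scales is given as such.

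SNAP-25, the SNARE of regulated release at the neuronal plasma membrane, shared its family with a relative that was counted in nearly as many cells. Snap25 (chromosome 2 at 136713453 to 136782428, plus strand, GRCm38/mm10) numbered 0, 6, 2, 1, 39, 3, 1, 0 and 5 molecules in cells 1 to 9, in that order. Cell 5 thus held 68.4% of the Snap25 molecules (interval 54.8 to 80.1%), and 28.97% of all gene molecules. Snap47 (chromosome 11 at 59407134 to 59451186, minus strand), whose protein is a SNAP-25 relative found largely on intracellular membranes, numbered 0, 9, 3, 1, 17, 0, 0, 2 and 4 in the same order. Cells 2, 3, 4, 5 and 9 held both genes.

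Snap25 led the family with 57 of its 96 molecules (59.4%, interval 48.9 to 69.3%), and Snap47 had 36. This lead rested on cell 5. There Snap25 outnumbered Snap47 by 39 to 17, or 69.6% of the pair (interval 55.9 to 81.2%), while the other 8 cells held 18 of Snap25 and 19 of Snap47 (48.6%, interval 31.9 to 65.6%). Without cells 4, 5, 7 and 8 each had 16. Per kb of transcript, Snap47 stood at 19.0 molecules and Snap25 at 11.7, so the order turned round on that scale. Snap23, the relative used for secretion in many non-neuronal cells, had 2 molecules in cell 5 and 1 in cell 8, and Snap29, of endosomal and autophagic membranes, had none.

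Promoter windows of Snap47, Snap23 and Snap29 are shown because these genes range from 36 molecules to none within 1 family. No window was at hand for Snap25, which led the family with 57. The sequences are RefSeq windows of GRCm38.p6 from 250 bases before to 50 after an annotated start. The Snap47 window lies inside the gene span given above, so its start is not the outermost one of that span. Such windows were at hand for 60 of the 82 genes, with 75 windows in all. Capitals mark matches on either strand to the GC box GGGCGG, the CCAAT box CCAAT, the TATA box TATAAA or the cAMP response element TGACGTCA.
Snap47 (chr11:59449985-59450284, minus strand): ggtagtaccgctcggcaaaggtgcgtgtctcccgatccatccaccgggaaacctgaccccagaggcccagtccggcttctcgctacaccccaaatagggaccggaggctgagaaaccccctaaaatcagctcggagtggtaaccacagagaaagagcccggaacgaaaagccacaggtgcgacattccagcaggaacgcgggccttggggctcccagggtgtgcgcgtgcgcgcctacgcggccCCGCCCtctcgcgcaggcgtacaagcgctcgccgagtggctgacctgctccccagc
Snap23 (chr2:120567421-120567720, plus strand): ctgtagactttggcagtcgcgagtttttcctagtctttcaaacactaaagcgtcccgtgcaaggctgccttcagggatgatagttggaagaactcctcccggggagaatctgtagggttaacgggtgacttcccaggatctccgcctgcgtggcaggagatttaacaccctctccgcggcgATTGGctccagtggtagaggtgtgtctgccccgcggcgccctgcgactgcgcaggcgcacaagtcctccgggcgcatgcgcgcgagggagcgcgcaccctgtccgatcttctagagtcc
Snap29 (chr16:17405750-17406049, plus strand): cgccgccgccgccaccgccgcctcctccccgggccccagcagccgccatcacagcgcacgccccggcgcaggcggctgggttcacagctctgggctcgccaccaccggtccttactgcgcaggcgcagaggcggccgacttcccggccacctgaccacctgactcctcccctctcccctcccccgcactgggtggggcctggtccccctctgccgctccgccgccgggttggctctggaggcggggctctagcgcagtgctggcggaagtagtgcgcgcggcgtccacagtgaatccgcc
The Snap47 window held 1 GC box and the Snap23 window 1 CCAAT box, and none of these letters was found in the Snap29 window. GC content was 65.0% for Snap47, 60.3% for Snap23 and 75.3% for Snap29.

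The vesicle SNAREs were fewer. The VAMP family gave 41 molecules in 5 cells, and no member reached 5 cells. Vamp2, the main vesicle SNARE of synapses (chromosome 11 at 69088490 to 69092384, plus strand), was counted 10 times in cell 5, 4 times in cell 9 and once in each of cells 3 and 4. Cell 2, with 101 molecules of release genes per 10000, held no VAMP molecule of any kind; a count of 0 there allows up to 3.85 per 10000. Vamp1, the other synaptic form, had 2 molecules in cell 5.

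Vamp3, or cellubrevin, a form common outside neurons, was counted 8 times in cell 4 and once in cell 5. Cell 4 held 2376 molecules of blood markers, 124 of endothelial markers and 9 of mural markers, with neuron markers at 7.49 per 10000. Without cells 4, 5, 7 and 8 Vamp3 had no molecule, since cells 4 and 5 held all of it. Vamp7, of lysosomal and late endosomal fusion, had 3 molecules in cell 3 and 4 in cell 5, and Vamp4, of the trans-Golgi network and endosomes, had 5 in cells 3, 5 and 9. Vamp8, an endosomal form, had 2 molecules in cell 7, which also held endothelial markers, and Vamp5 had none. From which cell type the molecules of Vamp3 and Vamp8 came was not tested. The forms of exocytosis, Vamp1, Vamp2 and Vamp3, held 65.9% of the family's molecules (interval 49.4 to 79.9%), and the rest came from Vamp4, Vamp7 and Vamp8. Per kb, Vamp2 led with 7.26 molecules and Vamp3 followed with 4.25, with no length at hand for Vamp7.

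Among the syntaxins, transcripts of the endosome and Golgi forms outnumbered those of the plasma membrane. Stx1a, of the synaptic plasma membrane, had no molecule in any cell. Stx3 had 4 molecules in cells 3, 7 and 8, Stx4a had 1 each in cells 3, 6 and 9, and Stx2 had none. The 8 genes of the endosome, Golgi and endoplasmic reticulum held 44 of the 55 syntaxin molecules (80.0%, interval 67.0 to 89.6%), and 75.5% on the scale per kb. The grouping was made after the counts were seen.

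Stx12, of recycling endosomes, numbered 0, 1, 0, 2, 7, 0, 0, 0 and 5 molecules in cells 1 to 9. Stx7, of late endosomes, numbered 0, 3, 1, 0, 6, 0, 0, 2 and 0. Their totals of 15 and 12 could not be told apart, with Stx12 at 55.6% of the pair (interval 35.3 to 74.5%), and the values per kb were 5.11 and 3.49. Stx5a, of the Golgi, and Stx17, of autophagosomes, had 4 molecules each, and Stx8, Stx16 and Stx18 had 3 each. Stx6, Stx11 and Stx19 had none.

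The recycling of SNARE complexes was represented in most cells. Nsf, the ATPase that takes them apart (chromosome 11 at 103821782 to 103954056, minus strand), numbered 0, 4, 0, 0, 13, 2, 1, 2 and 3 molecules in cells 1 to 9. Napb, its brain-enriched adaptor beta-SNAP (chromosome 2 at 148693985 to 148732467, minus strand), had the same total of 25, but 19 of them lay in cell 5, and cells 2, 7 and 9 held 2, 1 and 3. Napa and Napg, for alpha-SNAP and gamma-SNAP, had 10 molecules each. In cells 1 to 9 Napa numbered 0, 2, 2, 0, 2, 0, 0, 1 and 3, and Napg 0, 3, 1, 0, 1, 1, 0, 2 and 2.

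Napb and Napa were set apart by cell 5 too. Cell 5 held 19 molecules of Napb and 2 of Napa, a Napb share of 90.5% of the pair (interval 69.6 to 98.8%). The other 8 cells held 6 of Napb and 8 of Napa (42.9%, interval 17.7 to 71.1%), and the intervals just overlapped. Per kb over all cells, Nsf had 6.64 molecules, Napb 5.67, Napa 3.97 and Napg 2.80.

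Of the genes of syntaxin-binding proteins, Stxbp5, or tomosyn, which binds syntaxin in place of VAMP and restrains release, was found mostly in cell 7, with 6 of its 10 molecules; cell 9 held 2 and cells 3 and 5 held 1 each. Cell 7 had 55 molecules of endothelial markers, and the part of other cells in that level was not tested. Stxbp3a, the Munc18c gene, had 5 molecules and Stxbp2, the Munc18-2 gene, had 2, all in cell 5. That cell also held 413 molecules of oligodendrocyte markers, and from which cell type these molecules came was not tested. Stxbp3b, annotated as a pseudogene copy of Stxbp3, had no molecule, and how reads were divided between the copies is uncertain. Stxbp6, or amisyn, had 2 molecules in cell 6, Stxbp5l had 1 each in cells 5 and 7, and Stxbp4 had 1 in cell 8.

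The priming and clamping genes gave few molecules. Cplx1 and Cplx2 encode the main complexins of brain synapses. Cell 5 held 7 and cell 6 held 3 of the Cplx1 molecules, and Cplx2 had 7 in all, with 2 in cells 2 and 5 and 1 in cells 4, 7 and 9. Only cell 5 held both, and their shares could not be told apart (Cplx1 58.8%, interval 32.9 to 81.6%), with 4.57 and 1.42 molecules per kb. Without cell 5 the Cplx1 share was 37.5% and Cplx2 led. Cplx3 and Cplx4, best known from retina, had none.

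Of the Munc13 genes, Unc13c had 1 molecule in each of cells 3 and 8, Unc13b had 1 in cell 7, and Unc13a, the main neuronal form, had none. Of the genes of RIM active zone proteins, Rims1 had 1 molecule in each of cells 1, 7 and 9, Rims2 had 1 in cell 2 and 2 in cell 3, and Rims3 and Rims4 had none. Rims1 is split over 2 numbered loci, with molecules in different cells. Doc2a, for a calcium sensor of release outside the fast phase, had 1 molecule in cell 2 and 2 in cell 5, and Doc2b and Doc2g had none.

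The synaptotagmins were the largest family, with 190 of the 620 molecules (30.6%) from 12 of their 17 genes. Their summed level was 41.8 per 10000 in cell 2 (interval 29.9 to 56.9), with values of 35.4, 27.2, 21.4 and 17.9 for cells 6, 5, 3 and 9. Cell 4 stood lowest, at 4.16 (interval 1.35 to 9.70), and cells 1, 7 and 8 stood at 9.79, 11.2 and 11.4. The interval of cell 2 did not overlap those of cells 4, 7 and 8.

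Syt11 and Syt4 were the most widespread release genes. The 2 proteins are close relatives in which a calcium-binding aspartate of the first C2 domain is replaced by serine, and Syt4 lies on dense-core vesicles of neuroendocrine cells. Syt11 (chromosome 3 at 88744700 to 88775164, minus strand) numbered 0, 11, 6, 1, 28, 7, 1, 4 and 5 molecules in cells 1 to 9. Syt4 (chromosome 18 at 31437808 to 31447406, minus strand) numbered 0, 4, 10, 4, 5, 1, 3, 8 and 7. Both were thus present in every cell but cell 1.

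Syt4 was the more even of the pair. Its largest share in any cell was 23.8%, in cell 3 (interval 12.1 to 39.5%), and its 8 cells lay between 1.89 and 9.32 per 10000. Among them only the intervals of cells 3 and 5, 4.47 to 17.1 and 0.613 to 4.41, did not overlap. Syt11 was above Syt4 in cells 2, 5 and 6 and below it in cells 3, 4, 7, 8 and 9. In cell 5 Syt11 held 28 of the 33 molecules of the pair (84.8%, interval 68.1 to 94.9%). In the other 8 cells it held 35 of 72 (48.6%, interval 36.7 to 60.7%), an interval that did not overlap that of cell 5. Those 8 cells were not alike, so their pooled share describes no single cell. Syt11 led Syt4 by 7 to 1 in cell 6 and by 11 to 4 in cell 2, and Syt4 led in 5 cells. Together they held 105 of the 190 synaptotagmin molecules (55.3%, interval 47.9 to 62.5%), and 48.0% on the scale per kb.

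Syt1, the fast calcium sensor of synaptic release (chromosome 10 at 108497650 to 109010982, minus strand), numbered 0, 11, 2, 0, 27, 0, 1, 0 and 1 molecules in cells 1 to 9. With Syt2, its closest relative in that role, at 0, it held 22.1% of the family's molecules (interval 16.4 to 28.7%). Its level was 11.5 per 10000 in cell 2 and 10.2 in cell 5. In cells 4 and 8 none was found, and the upper ends of the intervals there, 3.07 and 2.80 per 10000, lay below the lower ends of cells 2 and 5, 5.74 and 6.72. Syt4 outnumbered Syt1 in 6 cells and Syt1 outnumbered Syt4 in cells 2 and 5, and their totals were equal at 42. Over the 8 cells without cell 5, Syt4 held 37 and Syt1 held 15 (71.2% for Syt4, interval 56.9 to 82.9%).

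The promoter windows of Syt11 and Syt1 are set together because the first gene was in 8 cells and the second in 5, with more than 1 molecule only in cells 2, 3 and 5. The Syt11 window lies inside the gene span given above, so its start is not the outermost one of that span. Capitals mark the same 4 motifs.
Syt11 (chr3:88772550-88772849, minus strand): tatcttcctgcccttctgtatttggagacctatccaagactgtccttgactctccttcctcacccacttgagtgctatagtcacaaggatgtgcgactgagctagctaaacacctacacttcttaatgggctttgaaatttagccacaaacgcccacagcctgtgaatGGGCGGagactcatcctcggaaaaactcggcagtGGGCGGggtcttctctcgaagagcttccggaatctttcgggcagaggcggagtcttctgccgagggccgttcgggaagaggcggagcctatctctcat
Syt1 (chr10:109010926-109011225, minus strand): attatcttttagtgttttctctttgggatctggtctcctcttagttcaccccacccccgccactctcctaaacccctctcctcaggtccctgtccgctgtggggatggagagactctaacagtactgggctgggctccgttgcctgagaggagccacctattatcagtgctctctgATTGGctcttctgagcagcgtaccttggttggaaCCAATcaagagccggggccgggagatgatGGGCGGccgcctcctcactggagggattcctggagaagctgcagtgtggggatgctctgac
The Syt11 window held 2 GC boxes, and the Syt1 window 1 GC box and 2 CCAAT boxes. A second Syt1 window of the table held none of the 4 motifs. A GC box was found in 45 of the 75 windows of the release genes (60.0%) and in 35.7% of all 32851 windows, a CCAAT box in 26.7% and 37.4%, a TATA box in 5.33% and 13.6%, and a cAMP response element in 2.67% and 1.79%. These matches describe the letters of the windows, and binding was not measured.

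Of the other synaptotagmins, Syt5 stood out by a single cell. It had 10 molecules in cell 2, or 10.4 per 10000 (interval 5.01 to 19.2), while cells 3, 5 and 8 held 3, 4 and 1 and the other 5 cells held 0. The interval of cell 2 lay above those of cells 4, 5, 8 and 9, and cell 2 also held 3 of the 4 molecules of Syt9. Because its longest annotated transcript is short, Syt5 came close to Syt4 per kb, with 10.3 molecules against 10.8, while Syt11 had 12.5 and Syt1 had 8.71. Syt7, a slower sensor of high calcium affinity, gave 6 molecules, 3 of them in cell 5, with single ones in cells 1, 2 and 6. Syt13, which lacks calcium binding, had 6 molecules in cells 3, 5 and 6. Syt3, Syt10, Syt12, Syt15 and Syt16 had 1 to 3 molecules, and Syt6, Syt8, Syt14 and Syt17 had none. Of the 5 synaptotagmin-like genes, which encode Rab27 effectors of granule docking, Sytl2 had 1 molecule in cell 5 and the others had none.

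**Figure D3:**
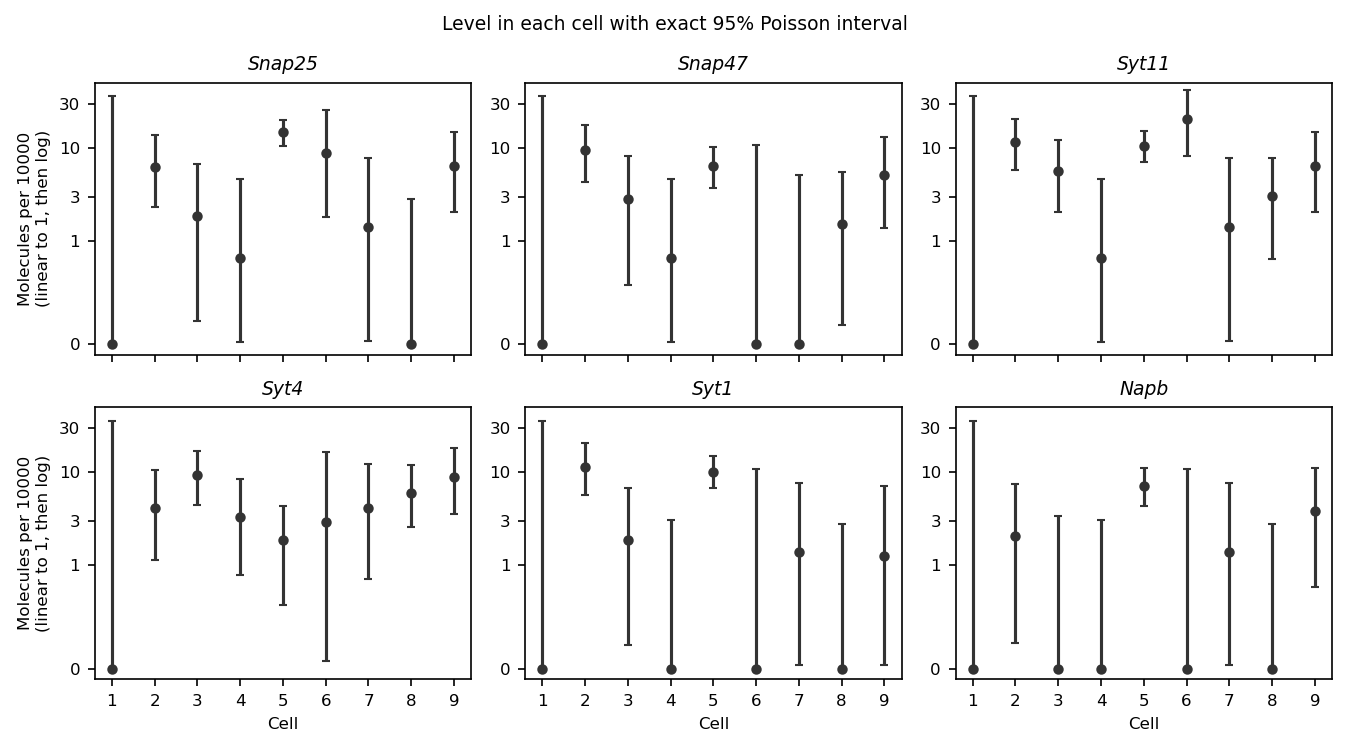
Level of 6 release genes in each cell in molecules per 10000 gene molecules, on an axis that is linear to 1 and logarithmic above; points are levels and bars exact 95% Poisson intervals. Syt4 lies between 1.89 and 9.32 per 10000 in all cells but cell 1, and Snap25 is highest in cell 5 at 14.7.

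Among genes for proteins of the synaptic vesicle itself, Syp was counted in 3 cells and Sv2a in 7. Syp encodes synaptophysin, the classical marker of small vesicles (chromosome X at 7638471 to 7653256, plus strand). It was counted only in cells 3, 5 and 9, which held 3, 10 and 7 molecules, with 0 counted in the other 6. Its level was 8.94 per 10000 in cell 9 (interval 3.60 to 18.4) and 3.78 in cell 5. In cell 2 the upper end for its count of 0 was 3.85 per 10000, just above the lower end of cell 9. In the shallow cells 1 and 6 that upper end was 36.1 and 10.9, above the level of cell 9. Sv2a, for a vesicle glycoprotein that binds synaptotagmin (chromosome 3 at 96181151 to 96195521, plus strand), numbered 0, 2, 4, 2, 11, 1, 1, 1 and 0 molecules in cells 1 to 9. Sv2a held 22 of the 24 molecules of its family (91.7%, interval 73.0 to 99.0%), Sv2b had 1 each in cells 2 and 5, and Sv2c had none. Cell 9 thus had the highest Syp level, with an interval that overlapped those of cells 3 and 5, and no molecule of Sv2a. Its count of 0 for Sv2a allows up to 4.71 per 10000, above the Sv2a level of every other cell (highest 4.16, in cell 5). Cell 1 had no Sv2a molecule either.

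Synapsins tether vesicles to each other in the terminal. Syn2 numbered 0, 4, 0, 0, 7, 0, 0, 3 and 1 molecules in cells 1 to 9, and Syn1 numbered 0, 0, 0, 0, 6, 3, 3, 0 and 0. Apart from cell 5 no cell held both, and their totals of 15 and 12 could not be told apart (Syn2 55.6% of the pair, interval 35.3 to 74.5%). Per kb they had 3.89 and 3.68 molecules. Syn3 had 1 molecule in cell 2. Snap91, which encodes AP180, a clathrin adaptor of vesicle retrieval and not a SNARE, numbered 0, 5, 3, 1, 10, 3, 0, 0 and 1 in that order.

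**Figure D4:**
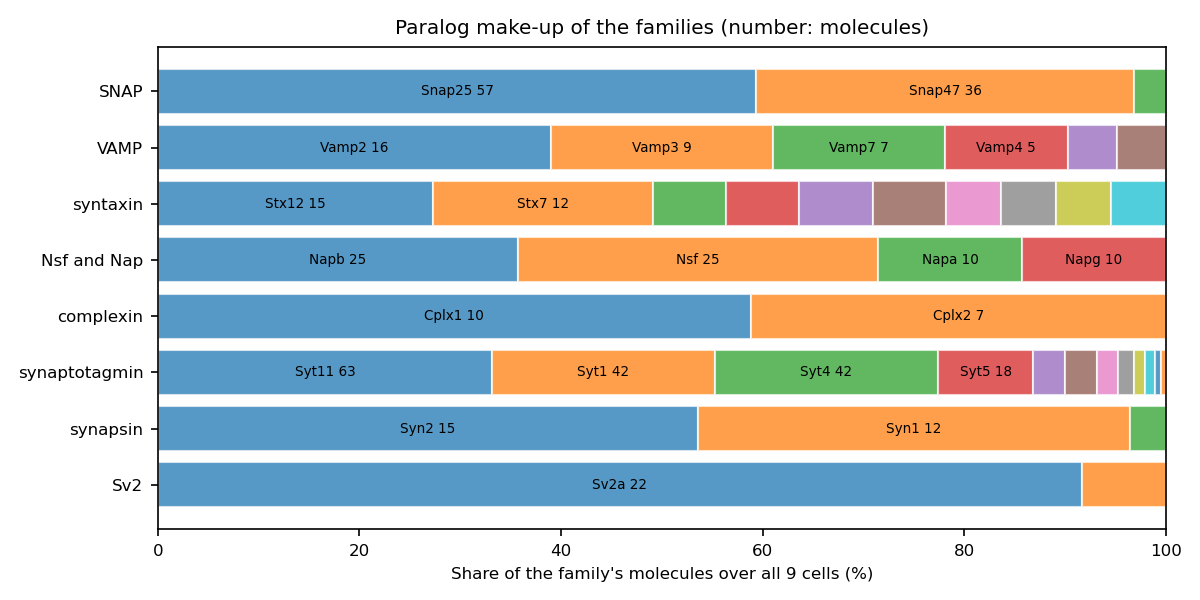
Share of each family's molecules held by each of its genes, summed over the 9 cells, for 8 families with at least 10 molecules and more than 1 gene; numbers are molecules, and segments under 9% carry no name. Snap25 holds 59.4% of the SNAP molecules, Syt11 33.2% of the synaptotagmin molecules and Sv2a 91.7% of the Sv2 molecules, all before scaling by transcript length.

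The cells were then compared by 4 parts of the neuronal fusion machine, a grouping made after the counts were seen: Snap25, a synaptic VAMP (Vamp1 or Vamp2), a fast sensor (Syt1 or Syt2) and a complexin. Cells 5 and 9 held all 4 parts, with 87 and 11 molecules. The 4 parts leave out the syntaxin, Munc18, Munc13 and RIM genes, so they are not the whole machine. Neither cell 5 nor cell 9 held an Unc13 molecule, and Rims genes had 0 in cell 5 and 1 in cell 9. Cells 2, 3, 4 and 7 held 3 parts, with 19, 5, 3 and 3 molecules, so cells 4 and 7 had 1 molecule of each part present. Cell 6 held 2 parts with 6 molecules, and cell 1 held none. Cell 8 held none of the 4 either, although it was the second deepest cell with 13176 gene molecules and 36 molecules of other release genes, 12 of them from Syt4 and Syt11. It held 303 molecules of ependymal and tanycyte markers, 231 of them Dbi, 29 of astrocyte markers and 26 of the neuron markers without Meg3.

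Cells 5 and 9 were also those with the most Crh, the gene of corticotropin-releasing hormone, at 13 and 19 molecules. Cells 3 and 8 had 2 each, and none was found elsewhere. Cell 5 was the deepest cell, with 26466 gene molecules, and held 413 molecules of oligodendrocyte markers. Whether Crh and the 4 parts go together was not tested. In cell 9 Syt1 and the complexins rested on 1 molecule each. At 2 or more molecules only cell 5 held all 4 parts. Cell 2, with no molecule of Vamp1 or Vamp2, had 19 molecules of the other 3 parts and the highest summed level of the synaptotagmins.

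Other genes of the pathway were taken from lists drawn up with earlier results known, and their shares in at least 5 cells stand beside the 7.00% of all genes. Of 20 active zone and priming factors, 7 were in at least 5 cells, 12 in 1 to 4 and 1 in none. Rabac1, a Rab acceptor, had 35 molecules, Rab3c, a vesicle GTPase, had 28 in 8 cells, Pclo, the active zone scaffold piccolo, had 27 and Rab3a had 24. Baiap3, a Munc13 relative of dense-core vesicle traffic, had 21 molecules in 6 cells, against 3 for Unc13a, Unc13b and Unc13c together; it was named after its count was seen.

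Of 10 SNAREs of intracellular membranes outside the families above, 2 reached at least 5 cells and 8 did not, though all had a molecule. Vti1b, of late endosomes, led with 23 molecules in 8 cells, and Gosr2 and Use1, of the Golgi and endoplasmic reticulum, had 11 each. Of 19 genes of vesicle endocytosis, 10 were in at least 5 cells, 8 in 1 to 4 and 1 in none. Synj1, a lipid phosphatase that uncoats vesicles, had 33 molecules, Dnm1, neuronal dynamin, had 29, Cltc, the clathrin heavy chain, had 25 and Dnm3 had 17. Of 12 other vesicle membrane genes 3 were in at least 5 cells, namely Scamp2, Syngr1 and Scamp1, with 7, 13 and 12 molecules, and Syngr3 had the most molecules, 18 in 4 cells. Of 14 tethers and SM proteins none was in at least 5 cells, 10 were in 1 to 4, and Exoc7 of the exocyst led with 12 molecules.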

How the data were processed

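Single cells were captured on a microfluidic chip, spike-in RNAs were added at lysis, and cDNA was amplified and fragmented with Tn5 transposase, per the labels' protocols. The submitters' processing notes name mm10 and Bowtie, with no version. The authors deposited whole-number counts, called molecules after the name of the deposit; how duplicates were collapsed and whether strand was used are not given in the sources used here. Of the columns, 0 were left unassigned.

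Numbered loci of a symbol were merged by taking the largest row in each cell. Levels are molecules per 10000 gene molecules without the 92 spike-in rows. Exact Poisson and Clopper-Pearson intervals (95%) were computed, and the limit of a count of 0 is the upper end of its Poisson interval, 3.69 molecules. The interval functions were tested on simulated data. A gene was called detected at 1 molecule, and in most cells at 5 of 9. Families with at least 10 molecules were compared under the alternatives given in the closing section. No doublet caller was run on 9 cells; marker lists were summed instead. Lengths and positions came from GENCODE M21, which held 80 of the 82 symbols, and promoter windows from RefSeq (GRCm38.p6). The genes, lists and alternatives were chosen with earlier results of these data known; every gene with a molecule could be named, but some are not reported here and enter only the sums and counts. Python 3.11.15, numpy 2.4.6, scipy 1.17.1, pandas 2.3.3 and matplotlib 3.10.9 were used.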

Additional observations from a re-analysis of the deposited data

Results flagged for a closer look

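In 7 of 30 measures, 1 of the 9 cells lay further from its nearest neighbour than Dixon's 95% critical value for the range allows. That value assumes normally distributed replicates, while these are counts with many 0s from cells of unlike depth. The usual chance rate of 1 in 20 therefore does not apply, and whether 7 of 30 exceeds chance cannot be judged. The value served only to flag cells and not as a test, and the measures share cells and molecules. In cell 6, the complexin family and Cplx1 stood at 8.84, from the same 3 molecules, and Syn1 also stood at 8.84. In cell 9, Syp stood at 8.94 and Stx12 at 6.39, next to 3.78 and 2.64 in cell 5. In cell 7, Stxbp5 stood at 8.38, next to 2.56, and in cell 2, Syt5 stood at 10.4, next to 2.80. Cells 1 and 6 have the fewest gene molecules, so 1 molecule weighs most there.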

How the results depend on the processing

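Counts of 1 to 3 molecules carry most genes, and depth limits every statement of absence. The number of genes in most cells, 12, was 6 when detection needed 2 molecules and 2 when it needed 3. It was 19 without cells 1 and 6 (at least 4 of 7 cells), 13 without cells 4, 5, 7 and 8 (at least 3 of 5), and 0.539 as the expected number after thinning every cell to 1021 molecules. Leaving out 1 cell gave 9 to 12 genes. The summed level of 67.9 per 10000 ran from 53.5 without cell 5 to 75.2 without cell 4, was 77.3 without mitochondrial rows in the total, 81.3 without ribosomal protein rows as well and 78.7 without cells 4, 5, 7 and 8.

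Per kb of the longest transcript, the share of Snap25 in its family was 36.8% and that of Syt11 25.8%. Per kb of the median-length transcript, an alternative chosen after seeing the data, Snap25 had 31.6%, Syt11 18.7% with Syt5 then leading, Cplx1 84.3% and Napb 8.06%, and Stx7 led the syntaxins. As a mean of levels over cells, Syn1 led the synapsins. Without cells 4, 5, 7 and 8, Napb had 17.9%. Leaving out 1 cell at a time, Snap25 ran from 47.4% (without cell 5) to 63.0%, Napb from 17.1% (without cell 5) to 39.0%, and Cplx1 from 37.5% (without cell 5) to 66.7%. Without cell 5, Snap47, Vamp3, Syt4, Cplx2 and Nsf led their families. Summing numbered loci could not change the 8 family shares, because only Rims1 is split and its family, with 6 molecules, is not among them. The cells with all 4 core parts, counted after seeing the data, were 2, then 1 at 2 or more molecules, 1 without cells 4, 5, 7 and 8, and 1 (without cell 5 or cell 9) to 2 when 1 cell was left out. Of 149 alternative values, 132 stayed within the limits set for them and 17 did not. These limits were wide. The summed level could move by its standard deviation over cells, 31.6 per 10000. A share could move within its own interval, whichever paralog then led. The 8 values with loci summed could not change, and those without cell 1, which held few of these molecules, could hardly change. The tally is therefore no measure of how stable the results are. No paired analysis was possible because all cells form 1 group and no test was made.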
